A study of Mus musculus with 6 samples.

Results

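The 500 longest DNA regions that carried a methylated-DNA peak in all 6 samples were examined in mouse primary mesangial cells, the contractile matrix-producing cells of the kidney glomerulus. Overlapping peaks (at least 1 bp) of the 6 samples were joined into regions, the longest peak of each sample was taken in each region, and the regions on chr1 to chr19 were ordered by the mean of these 6 lengths. The 500 members were therefore chosen by length, out of 40840 regions on these chromosomes with a peak in every sample and 41744 on all chromosomes. They are named here by their rank, 1 being the longest.

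All 6 samples were cultured with 25.5 mM glucose and 20% foetal bovine serum and used between passages 3 and 6. Labels give 3 samples as control and 3 as treated with TGF-β1, at 10 ng/ml of this profibrotic cytokine for 72 h, although the protocol text of the controls names the same treatment. Sheared genomic DNA was pulled down with an antibody against methylated cytosine and sequenced (MeDIP-seq). Control samples 1, 2 and 3 held 10319496, 9407103 and 11494356 reads. TGF-β1 samples 1, 2 and 3 held more, at 12748318, 12634300 and 13291419, so that depth and treatment cannot be told apart. The study's text calls the replicates biological without stating separate cultures, and the p-values measure only the spread between these samples. Peaks hold no expression values, and markers of the cell type could not be checked.

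Methylation in mammals sits mostly on CpG, a cytosine followed by a guanine, and covers most of the genome outside active promoters and CpG islands. The pull-down follows the number of methylated CpGs on a fragment, so that a CpG-dense stretch without gaps gives one long peak. Satellite DNA, transposon copies and other repeats are generally methylated in somatic cells, as are the bodies of many genes. A tandem array repeats one unit head to tail, and where that unit holds CpGs the array carries them at a regular spacing.

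Reference sequence of 7 members is printed here to show what these long regions are made of. All are from the plus strand of mm9 with each CpG in capitals. The first set is 4 neighbouring units of rank 1, at chr11:106910553-106910764 in an intron of Bptf, a subunit of a chromatin remodelling complex. The unit is 53 bp long and holds 3 CpGs.
unit 1 of the Bptf array: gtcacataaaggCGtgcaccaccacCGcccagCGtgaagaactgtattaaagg
unit 2 of the Bptf array: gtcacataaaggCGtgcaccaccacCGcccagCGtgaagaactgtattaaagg
unit 3 of the Bptf array: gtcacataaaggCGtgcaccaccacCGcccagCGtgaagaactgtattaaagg
unit 4 of the Bptf array: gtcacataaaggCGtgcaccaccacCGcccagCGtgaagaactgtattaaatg
The second set is 4 units of 61 bp of rank 10, at chr1:43834617-43834860 in an intron of Uxs1, which makes UDP-xylose for proteoglycan synthesis.
unit 1 of the Uxs1 array: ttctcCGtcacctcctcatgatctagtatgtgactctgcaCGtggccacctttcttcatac
unit 2 of the Uxs1 array: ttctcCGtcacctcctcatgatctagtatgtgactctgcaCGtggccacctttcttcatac
unit 3 of the Uxs1 array: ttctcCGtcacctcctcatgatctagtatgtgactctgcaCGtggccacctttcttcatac
unit 4 of the Uxs1 array: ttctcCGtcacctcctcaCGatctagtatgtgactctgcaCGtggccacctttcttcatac
The third set is 4 units of 44 bp of rank 5, at chr4:118219973-118220148 between genes.
unit 1 of the chromosome 4 array: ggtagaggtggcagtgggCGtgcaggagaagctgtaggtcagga
unit 2 of the chromosome 4 array: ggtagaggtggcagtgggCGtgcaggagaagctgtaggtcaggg
unit 3 of the chromosome 4 array: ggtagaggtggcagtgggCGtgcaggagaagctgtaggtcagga
unit 4 of the chromosome 4 array: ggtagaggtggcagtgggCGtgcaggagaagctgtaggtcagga
The fourth set is 2 units of 234 bp of rank 2, at chr9:3000175-3000642 near the first assembled bases of the chromosome. This is the unit length of the mouse major satellite, the repeat of pericentromeric heterochromatin.
unit 1 of the chromosome 9 array: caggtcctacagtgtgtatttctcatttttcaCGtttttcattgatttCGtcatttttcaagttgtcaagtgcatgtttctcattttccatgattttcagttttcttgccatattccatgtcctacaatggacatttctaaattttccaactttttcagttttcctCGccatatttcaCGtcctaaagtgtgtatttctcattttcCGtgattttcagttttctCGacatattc
unit 2 of the chromosome 9 array: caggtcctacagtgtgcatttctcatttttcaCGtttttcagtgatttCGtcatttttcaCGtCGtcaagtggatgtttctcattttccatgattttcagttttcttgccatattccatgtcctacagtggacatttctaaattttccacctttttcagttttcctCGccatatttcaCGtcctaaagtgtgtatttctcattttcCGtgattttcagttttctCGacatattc
The fifth set is 3 units of 84 bp of rank 75, at chr7:24890542-24890793 in the coding exon of Zfp180. Each unit encodes a C2H2 zinc finger with its linker.
unit 1 of the Zfp180 array: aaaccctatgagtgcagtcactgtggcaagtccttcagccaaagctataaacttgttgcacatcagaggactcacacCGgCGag
unit 2 of the Zfp180 array: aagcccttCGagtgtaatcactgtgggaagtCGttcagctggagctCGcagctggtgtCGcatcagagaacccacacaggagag
unit 3 of the Zfp180 array: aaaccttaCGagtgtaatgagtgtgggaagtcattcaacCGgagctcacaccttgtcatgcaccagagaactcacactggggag
The next is the 300 bp of rank 22 with the most CpGs, at chr17:39983990-39984289, where 31 CpGs were counted. Its letters include those of the small-subunit ribosomal RNA gene.
rank 22: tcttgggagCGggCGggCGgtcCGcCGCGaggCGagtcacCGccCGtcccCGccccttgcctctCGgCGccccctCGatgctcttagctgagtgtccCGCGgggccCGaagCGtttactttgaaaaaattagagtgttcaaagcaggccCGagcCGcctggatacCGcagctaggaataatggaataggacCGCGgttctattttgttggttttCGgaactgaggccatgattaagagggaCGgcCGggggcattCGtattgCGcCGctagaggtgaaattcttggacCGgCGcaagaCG
The last is the 240 bp of rank 45 with the most CpGs, at chr1:30860751-30860990 in the coding exon of Phf3, a PHD finger protein of transcription. This stretch is not a repeat, and it holds 13 CpGs.
rank 45: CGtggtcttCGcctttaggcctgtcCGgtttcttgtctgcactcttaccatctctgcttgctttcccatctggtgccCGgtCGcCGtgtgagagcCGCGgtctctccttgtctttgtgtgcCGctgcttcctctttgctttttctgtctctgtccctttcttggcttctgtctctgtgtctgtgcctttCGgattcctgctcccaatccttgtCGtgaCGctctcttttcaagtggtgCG

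The members had a mean longest peak of 779.83 to 2384.83 bp with a median of 853 bp, whereas the median over all shared regions of chr1 to chr19 was 402.5 bp. Of the 500 members, 84 reached 1000 bp. The chromosomes contributed 0.808% (chromosome 3) to 1.52% (chromosomes 1 and 11) of their shared regions. The median longest peak of the members was 825.5, 855.5 and 890.5 bp in control samples 1, 2 and 3 and 893, 887 and 909.5 bp in TGF-β1 samples 1, 2 and 3. These lengths chose the members and were not tested. The threshold fell in a dense part of the distribution. Ranks 498 and 499, in introns of Egln1 and Ulk4, both had a mean of 780.67 bp, rank 500 had 779.83 bp, rank 501 had the same mean and followed it by chromosome order, and rank 502, over Rsbn1, had 779.17 bp. The 6 samples of a member varied with a median coefficient of variation of 11.8%, but in 114 members the longest sample was at least 2 times the shortest. In 386 of the 500 members every sample had exactly 1 peak.

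**Figure D1:**
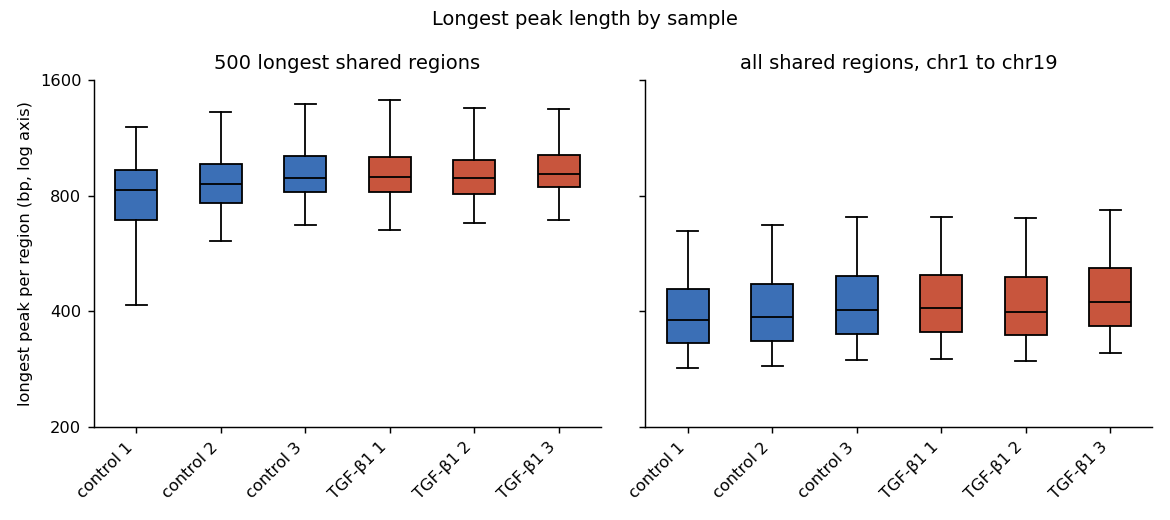
Length of the longest peak per region (bp, log axis) in each sample, for the 500 members on the left and all 40840 shared regions of chr1 to chr19 on the right; boxes show quartiles and median, whiskers the 5th and 95th percentiles. The members were chosen on these lengths, and control 1 had the lowest median in both panels.

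In 55 members all 3 TGF-β1 lengths lay above all 3 control lengths, and in 5 members all lay below. These are 11% and 1% of the members, beside 9.9% and 1.73% of all shared regions of chr1 to chr19. The mean length was higher with TGF-β1 in 356 members, 71.2%, beside 69.3% of all shared regions. The deeper libraries were all TGF-β1 libraries, and the part of depth in these lengths was not tested.

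Many of the members were repeats. They were put into 3 classes from the reference sequence. A member was counted as a tandem array where at least 60% of its bases equalled the base at one fixed distance (lag) of 2 to 300 bp downstream. Of the remainder, it was counted as dispersed copies where at least 50% of its 31-base words (31-mers) also occurred elsewhere in the assembly, and otherwise as mostly single copy. Tandem arrays made up 103 members, 20.6%, beside 1.77% of all shared regions. Dispersed copies made up 154 members, 30.8%, beside 22.7%, and mostly single copy regions 243 members, 48.6%, beside 75.5%. These shares describe regions picked by length, and the difference was not tested. The median share of 31-mers occurring once in the assembly was 50.6% in the members and 98.2% over all shared regions.

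**Figure D2:**
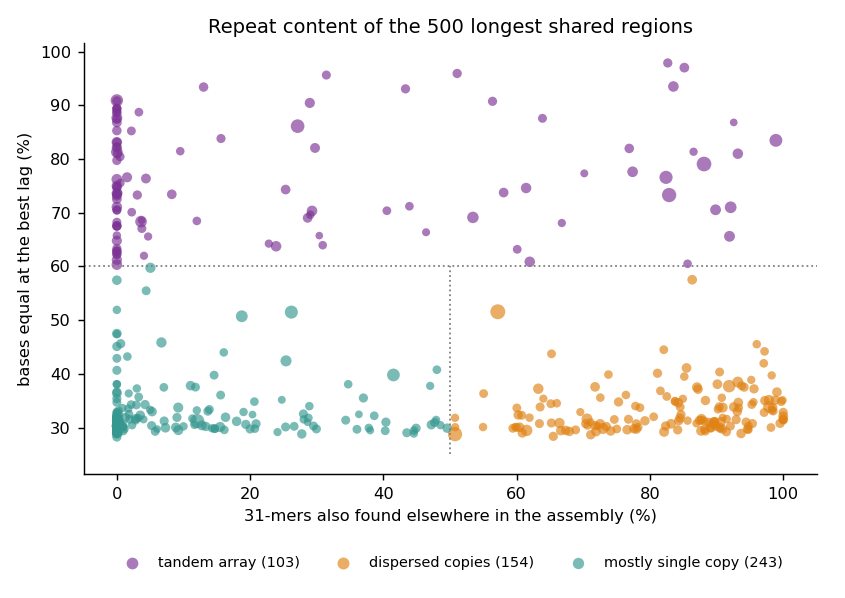
Share of 31-mers also found elsewhere in the assembly (%) against the share of bases equal at the best lag (%) for the 500 members, coloured by class; point area grows with the square root of the mean highest pileup and dotted lines mark the 60% and 50% limits. The 103 tandem arrays lie above the upper line, and 58 of them had under 10% of their 31-mers elsewhere.

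The tandem arrays were mostly local to their site. Of the 103, 58 had under 10% of their 31-mers outside the region. The lag with the highest identity (best lag) had a median of 40 bp and reached 290 bp. It was 2 to 6 bp in 7 arrays, 7 to 100 bp in 81 and longer in 15. A best lag can be a multiple of the repeated unit, so these are not all unit lengths. Of the 10 longest members 7 were tandem arrays. Of the arrays, 60 lay in introns, 35 between genes and 3 in coding sequence.

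The Bptf array of rank 1 repeated its 53-bp unit with 70.3% identity at that lag over 2642 bp and held 141 CpGs, the most of any member. Its longest peak was 2512, 2113 and 2530 bp in the controls and 2567, 2194 and 2393 bp with TGF-β1. Its highest pileup, the number of extended fragments over the highest point, was 73, 60 and 90 in the controls and 70, 72 and 75 with TGF-β1. The groups overlapped in both measures.

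The Uxs1 array of rank 10 was the most regular of the 10 longest, with 90.9% of its bases equal at 61 bp and 0% of its 31-mers elsewhere. Its pileup was 136, 127 and 150 in the controls and 148, 133 and 152 with TGF-β1. The longest peak spanned 1438 to 1501 bp in the 6 samples, nearly the whole region in each. The raw pileups of the groups overlapped. Relative to each sample's median over the shared regions of chr1 to chr19, the pileup was 5.91, 5.52 and 5.56 in the controls and 5.29, 4.93 and 5.07 with TGF-β1, so that all 3 TGF-β1 values lay below the controls.

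The GC-rich array of rank 5, with 62.6% GC, 86.1% identity at 44 bp and the gene Tmem125 2984 bp away, behaved less evenly. Its pileup was 103, 237 and 267 in the controls and 202, 254 and 164 with TGF-β1, and the spread within each group exceeded the difference between the means. Its length held at 1566 to 1660 bp in all 6 samples. Length and height thus varied by different amounts in the same member.

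Satellite-like members carried the highest pileups. Rank 41, chr2:98506368-98507534 over the predicted gene Gm10800, had 301, 273 and 315 fragments in the controls and 282, 291 and 305 with TGF-β1, the highest value of any shared region on chr1 to chr19 in each of the 6 samples. Rank 2, over predicted Gm10722, had 276, 262 and 289 against 268, 262 and 281. Rank 3, chr9:3035584-3038235 over predicted Gm17535 and Gm10715, had 249, 247 and 240 against 247, 244 and 246. All 3 had their best lag at 234 bp, with 51.6%, 79.1% and 73.3% identity. Their height was not matched by enrichment over local background. Fold enrichment of the longest peak was 2.16 to 2.4 in rank 2 and 1.65 to 2.36 in rank 3 over the 6 samples. It was 6.55 to 7.04 in rank 41, beside sample medians of 7.2 to 7.81 over the members. In all 3 the raw pileups of the groups overlapped, while relative to the sample medians ranks 41 and 2 were lower in all TGF-β1 samples than in all controls.

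The longest peak of ranks 2 and 3 was less stable than their height. In rank 2 it was 1466, 2547 and 2539 bp in the controls and 1512, 1518 and 2723 bp with TGF-β1, and the shorter values were from samples with 2 peaks there. Ranks 4 and 6, chr4:3016571-3018435 and chr11:3000963-3002596, also lay close to the first assembled bases of their chromosomes and both had a best lag of 59 bp, with 50.7% and 51.5% identity. Their pileups were 110 to 129 and 156 to 180 over the 6 samples. In all, 12 members, 2.4%, lay within 1 Mb of the first assembled base, beside 0.901% of all shared regions.

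Rank 22 held 105 CpGs in 1368 bp, 7.68 per 100 bp, the densest member. Its pileup was 139, 252 and 270 in the controls and 272, 288 and 248 with TGF-β1, so that control 1 alone stood low. Rank 245, chr1:24618606-24619713, shared 97.9% of its 31-mers with the mitochondrial genome, and its pileup was 107, 83 and 113 in the controls and 137, 131 and 128 with TGF-β1. All 3 TGF-β1 values were above all 3 controls in raw pileup, and they overlapped after division by each sample's median. It was the only member with over 50% of its 31-mers on the mitochondrial genome, out of 4 such regions on chr1 to chr19, and was singled out after its values were seen. Uniquely placed reads were kept and each start position was counted once by the authors, and the part of unassembled copies and of this limit in the heights was not tested.

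**Figure D3:**
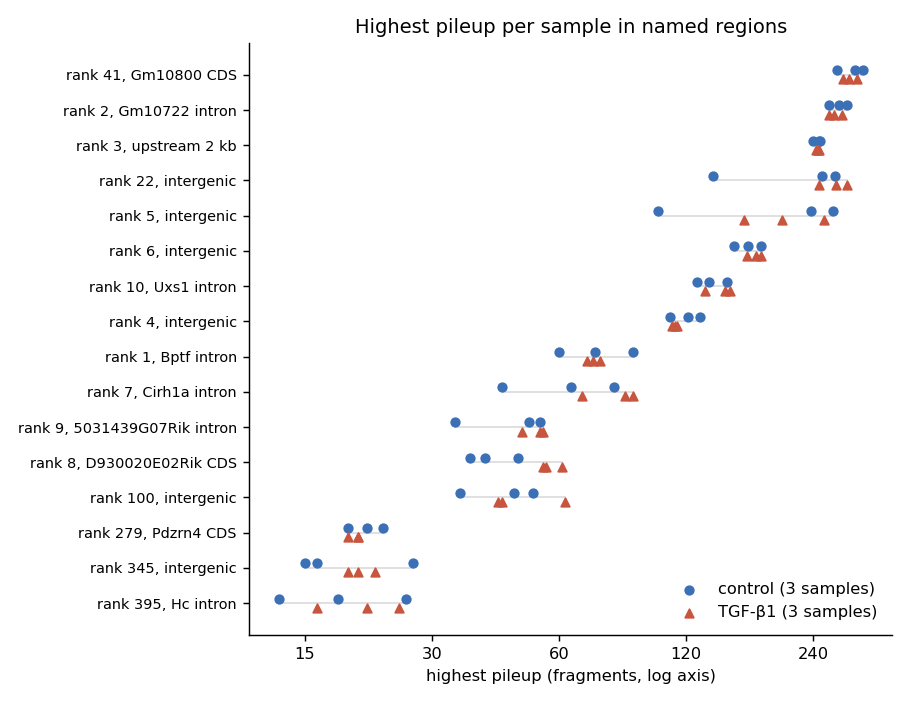
Highest pileup (fragments, log axis) in each of the 3 control (circles) and 3 TGF-β1 samples (triangles) for the 10 longest members and those with the highest or lowest pileup or the most CpGs, labelled by rank and gene element. Ranks 41, 2 and 3 lie between 240 and 315 in every sample, and ranks 5 and 22 have 1 low control sample.

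Most of the dispersed copies shared sequence with other members. Members that shared at least 20% of the smaller one's 31-mers were linked, which gave 14 families with 123 members, of which 117 were dispersed copies. In 2 of the families no member was, and 37 of the 154 dispersed members were in no family. The largest had 78 members on all 19 chromosomes, 52 of them between genes and 23 in introns, with a median of 195 copies of its 31-mers in the assembly and 4.08 CpGs per 100 bp. The next had 8, 6 and 5 members, with medians of 116.5, 146 and 18 copies. No repeat annotation was used, and these families are given without a name. The 154 dispersed members held 4.06 CpGs per 100 bp at the median, beside 2.65 in the arrays and 3.03 in the mostly single copy members. Of them, 70.1% lay between genes, beside 33.7% of the mostly single copy members.

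The members were CpG-richer than the shared regions as a whole. They held a median of 34 CpGs each, 3.21 per 100 bp, with an observed to expected ratio of 0.572, beside 13, 2.6 and 0.482 over all shared regions of chr1 to chr19. GC content was 49% beside 47.8%. A GC content over 50% together with a ratio over 0.6, the usual terms for a CpG island, was met by 58 members, 11.6%, beside 5.25%. Across the 500 members, Spearman's rank correlation was 0.304 between mean length and mean pileup and 0.173 between mean pileup and CpG density. Over all 40840 shared regions it was 0.429 and 0.318. These regions share the same 6 libraries, and long regions hold more bases for CpGs.

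A small group of members had a low density of CpG. There were 12 members under 1 CpG per 100 bp, 2.4%, beside 2.82% of all shared regions. Not all of them lacked CpG, as rank 14 held 12, or 0.825 per 100 bp. Rank 11, chr17:13743574-13745965 within a non-coding transcript of Tcte2, held 0 CpGs in 2392 bp and repeated a 5-bp unit with 69.1% identity. A run of 60 bases of it, at chr17:13743858-13743917, shows the unit and its lack of CpG.
rank 11: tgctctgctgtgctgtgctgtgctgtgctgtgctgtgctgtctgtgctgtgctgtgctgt
Its pileup was 41, 99 and 122 in the controls and 116, 129 and 113 with TGF-β1, with control 1 low. Rank 308, in an intron of Lemd3, an inner nuclear membrane protein that binds SMADs, also held 0 CpGs and repeated a 4-bp unit with 86.8% identity. Its pileup was 21, 21 and 20 in the controls and 21, 17 and 25 with TGF-β1. Rank 317, chr8:19929676-19930587, held 1 CpG and had 53, 51 and 57 against 43, 44 and 65. Peaks were called without an input sample, and pull-down unrelated to CpG methylation was not tested in these members.

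Long coding exons were a second feature of the members. The midpoint lay in coding sequence in 56 members, 11.2%, beside 7.81% of all shared regions, and in introns in 38.4% beside 39.4%. It lay between genes in 45% beside 45.8%, and within 2 kb upstream in 2.2% beside 2.57%. By bases, coding sequence took 11.7% of the members' length beside 6.31%. The 56 coding members lay in exons with a median length of 2152.5 bp, beside 237 bp for the 3189 shared regions with a coding midpoint. An exon of at least 1000 bp held 46 of the 56, 82.1% beside 27.2%. The last exon of a transcript with several exons held 26, 46.4% beside 20.8%, and 6 lay in transcripts of a single exon, 10.7% beside 3.92%. These shares describe regions picked by length and were not tested.

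**Figure D4:**
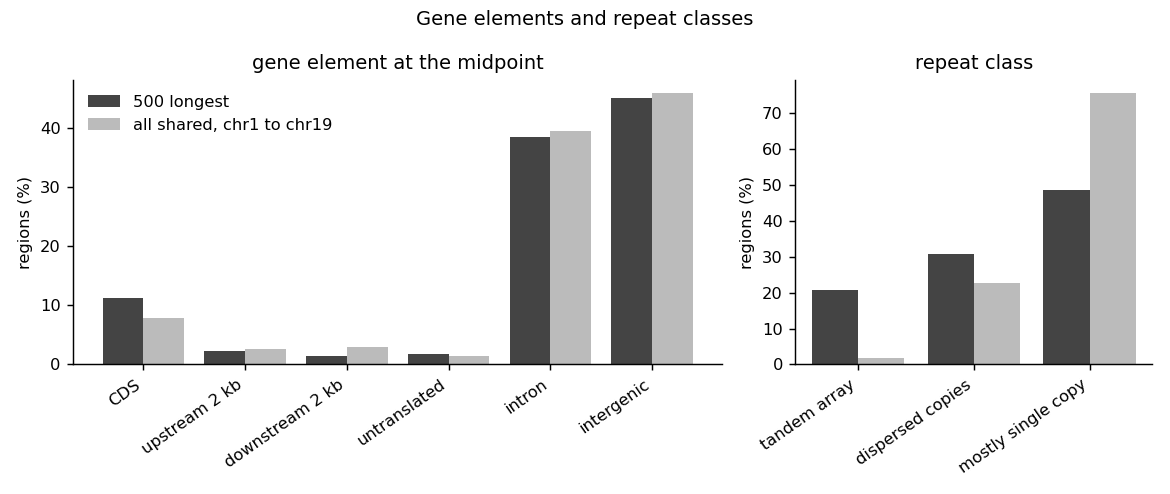
Share of regions (%) by the gene element at the midpoint (left) and by repeat class (right), for the 500 members (dark) and all 40840 shared regions of chr1 to chr19 (light). Coding sequence held 11.2% of the members beside 7.81%, and tandem arrays 20.6% beside 1.77%.

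The longest coding member was rank 8, chr14:69909169-69910984 in exon 3 of D930020E02Rik. Its pileup was 40, 37 and 48 in the controls and 61, 56 and 55 with TGF-β1, and the groups did not overlap in raw pileup, which is not scaled for depth. Relative to each sample's median it was 1.74, 1.61 and 1.78 against 2.18, 2.07 and 1.83, again without overlap, and the limma difference was 0.25 ± 0.16 (log2, SE; unadjusted p = 0.137, adjusted p = 0.999). Tet1, an enzyme that oxidises methylcytosine, held rank 217 in its last exon, exon 12, with a pileup of 20, 44 and 54 in the controls and 52, 62 and 35 with TGF-β1. Celsr1, an atypical cadherin of planar cell polarity, held rank 390 in its first exon with 38, 39 and 64 against 65, 62 and 45. The groups overlapped at both genes, in raw and in relative pileup.

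Members beside genes or in their untranslated exons were few, at 11 upstream, 7 downstream and 9 untranslated. The longest upstream of a gene, after rank 3, was rank 18, an array with its best lag at 26 bp, 793 bp from Cartpt, a neuropeptide gene. Its pileup was 37, 36 and 44 in the controls and 45, 48 and 46 with TGF-β1, while its longest peak ran from 523 to 2014 bp over the controls alone. Upstream of E130304I02Rik, rank 77 had 28, 30 and 41 against 36, 28 and 42. Among untranslated exons, the last exon of Rnd3, an atypical small GTPase that counteracts contractility, held rank 26 with 30, 23 and 35 against 33, 48 and 32. Those of Ndrg3 at rank 120 and of the helicase gene Helz at rank 156 followed, with 32, 21 and 42 against 40, 35 and 32, and 38, 55 and 57 against 42, 53 and 52. Downstream of genes, rank 56 near Sec14l4 had 37, 39 and 59 against 48, 55 and 56, rank 60 at Rufy2 had 42, 29 and 44 against 49, 47 and 60, and rank 83 at BC021785 had 68, 60 and 78 against 76, 68 and 73. Raw pileups of the groups did not overlap at Cartpt and Rufy2, but those relative to the sample medians did, and at none of the 8 did limma give an unadjusted p under 0.05.

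Zinc finger genes took the largest share of the gene lists examined. Of 333 numbered Zfp genes, most of which encode DNA-binding C2H2 proteins, 11 had a member within 2 kb, in 10 members. That is 2% of the members beside 0.71% of all shared regions. In 6 of the 10 the midpoint was coding, and all 6 had a best lag that is a multiple of 84 bp, the length of a finger with its linker. Zfp27, rank 35, had 63.3% identity at 252 bp and a pileup of 27, 38 and 58 in the controls and 41, 48 and 41 with TGF-β1. Zfp180, rank 75, had 64.8% identity at 84 bp and 52, 61 and 71 against 74, 52 and 60. The longest of the 10, Zfp704 of rank 27, was an intronic array with its best lag at 96 bp and 37, 44 and 48 against 50, 41 and 51. None of the 3 separated the groups in raw or relative pileup.

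Voltage-gated and related ion channel genes, which set membrane excitability, had 8 members, 1.6% beside 0.431%. Kcnab2, Kcnd2 and Kcnj16 held the 3 longest at ranks 36, 186 and 273. The pileup at the first exon of Kcnd2 was 28, 27 and 36 in the controls and 35, 32 and 39 with TGF-β1, and at Kcnj16 26, 29 and 29 against 27, 38 and 41. Olfactory and vomeronasal receptor genes had 3 members, 0.6% beside 0.132%, of which the coding exon of Olfr370, rank 86, had 48, 38 and 56 against 46, 39 and 61. Ranks 231 and 492 of this list had intronic midpoints and were dispersed copies, with 97.2% and 95.5% of their 31-mers elsewhere. The midpoint of rank 231 was in an intron of 9930111J21Rik2, and the listed gene within 2 kb was Olfr56. The shares of these lists were not tested.

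Lists of genes of the kidney and of TGF-β1 signalling held 0 or 1 member each. The lists of mesangial and pericyte identity genes, contractile smooth muscle genes, matrix proteases, Wnt and Notch genes, Hox genes, other developmental transcription factors and clustered histone genes had 0 members each, and 2 to 145 shared regions. TGF-β and BMP signalling genes had 1 member, Lemd3, which is 0.2% of the members beside 0.257% of all shared regions. Collagen genes had 1, 0.2% beside 0.26%, an intron of Col24a1 at rank 424 with 32, 23 and 30 in the controls and 29, 32 and 36 with TGF-β1. Laminin and integrin genes had 1, 0.2% beside 0.23%, an intronic array of Itgad at rank 57 with 70, 52 and 76 against 76, 63 and 87. These shares lie near the background and are no result about the members.

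The other lists held 1 or 2 members each. Among them were Celsr1 and Fat1 of the giant cadherins, Pcdhgc5 of the clustered protocadherins, Cdh5 of the markers of other kidney cells, Ddc of the imprinted genes, Tex2 of the germline genes, Tet1 of the DNA methylation genes, Muc6 of the giant structural proteins, and Bptf and Setd4 of the chromatin regulators. In all, 280 members, 56%, had a protein-coding gene within 2 kb, beside 54.9% of all shared regions, and 289 genes were reached. At the start of Fat1, a giant cadherin that is also found in the glomerular filter, rank 401 had 52, 49 and 60 in the controls and 65, 60 and 67 with TGF-β1. At Setd4, a methyltransferase gene, rank 197 had 32, 40 and 40 against 60, 45 and 60, with no overlap of the raw values, while relative to the sample medians they overlapped, at 1.39, 1.74 and 1.48 against 2.14, 1.67 and 2.0, and a limma difference of 0.33 ± 0.17 (log2, SE; unadjusted p = 0.0613, adjusted p = 0.999). At the endothelial cadherin gene Cdh5, rank 151 had 35, 40 and 50 against 39, 45 and 53, and in a coding exon of the mucin gene Muc6, rank 272 had 63, 52 and 66 against 74, 75 and 96. The raw values at Muc6 did not overlap. Relative to the sample medians they did, at 2.74, 2.26 and 2.44 against 2.64, 2.78 and 3.2 (limma unadjusted p = 0.144, adjusted p = 0.999). The predicted model Gm20388, which spans several genes on chromosome 8, held 5 members. Pawr, Pcdh15, Pdzrn4, Stk39 and Vps13b held 2 each.

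The comparison of TGF-β1 with control samples asked whether methylation at these long regions differed after treatment. The highest pileup of each region was put on the log2 scale, centred on the sample's median over all 41744 shared regions, and fitted by limma with adjustment over all of them. No member passed an adjusted p of 0.05, and neither did any other region (0%). These calls rest on pileups at called peaks, without counts of reads per region. The DESeq test on such counts in the study's methods was therefore not made. At an unadjusted p under 0.05, 6 members were higher with TGF-β1, 1.2% beside 1.96% of all regions tested, and 13 were lower, 2.6% beside 2.22%. The median log2 difference of the members was -0.0063 (quartiles -0.13 and 0.10) and that of all regions was -0.0047. The differences of the members ran from -0.51 to 0.45, with a median SE of 0.18. All 3 TGF-β1 samples lay above all 3 controls in 24 members, 4.8% beside 4.33%, and below in 26, 5.2% beside 4.95%.

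**Figure D5:**
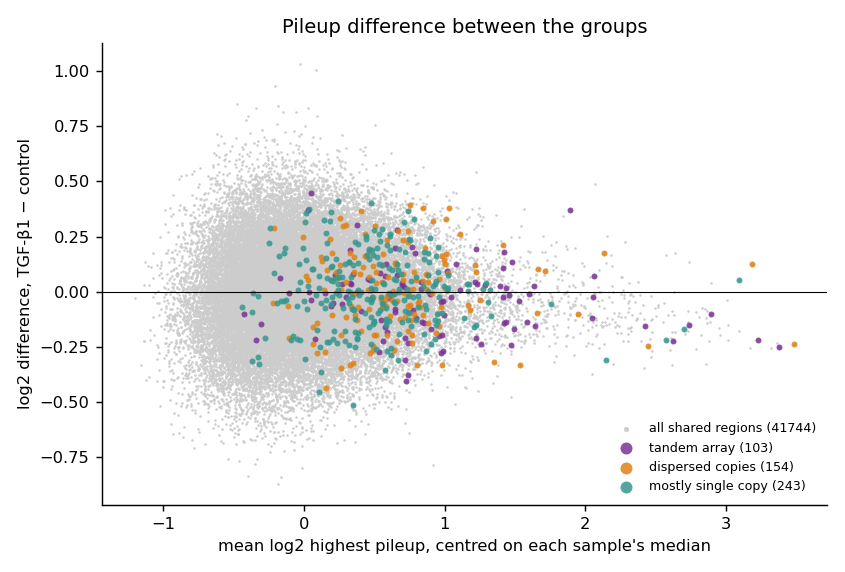
Mean log2 highest pileup, centred on each sample's median, against the log2 difference of TGF-β1 and control means for all 41744 shared regions (grey) and the 500 members coloured by class. The members scatter on both sides of 0, between -0.51 and 0.45.

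The members as a set had nearly the same height in each sample relative to the other shared regions. The median pileup of the members divided by the median of all shared regions was 1.43, 1.48 and 1.59 in the controls and 1.50, 1.52 and 1.50 with TGF-β1 (1.50 ± 0.08 and 1.51 ± 0.01, SD, n = 3 each, exact permutation test, two-sided, p = 1, adjusted p = 1). Median fold enrichment of the longest peak over local background was 7.2, 7.44 and 7.81 in the controls and 7.39, 7.37 and 7.39 with TGF-β1 (exact permutation p = 0.7, adjusted p = 1). Peaks per member region averaged 1.10, 1.09 and 1.05 in the controls and 1.06, 1.07 and 1.05 with TGF-β1 (exact permutation p = 0.4, adjusted p = 1). In all 3 measures the difference was smaller than the SD of the controls, at 0.0815, 0.3042 and 0.0287. The SD with TGF-β1 was smaller, at 0.0107, 0.0093 and 0.011. The differences in fold enrichment (-0.0988) and peaks per region (-0.02) exceeded it in size. The smallest p that 3 against 3 samples allow is 0.1.

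By class, the median relative pileup of the tandem arrays was 1.74, 1.83 and 1.89 in the controls and 1.71, 1.74 and 1.70 with TGF-β1. That of the dispersed copies was 1.39, 1.57 and 1.74 against 1.57, 1.57 and 1.50, and that of the mostly single copy members 1.39, 1.39 and 1.44 against 1.39, 1.41 and 1.43. The arrays stood highest in every sample. Their median log2 difference was -0.024, that of the dispersed copies 0.0071 and that of the single copy members -0.005.

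The 3 lower members with the smallest p were ranks 2, 41 and 4, all with high pileups. Rank 2 differed by -0.25 ± 0.07 (log2, SE; limma unadjusted p = 0.00162, adjusted p = 0.999), rank 41 by -0.24 ± 0.07 (limma unadjusted p = 0.00204) and rank 4 by -0.31 ± 0.11 (limma unadjusted p = 0.00766), with the same adjusted p of limma. Their raw pileups overlapped between the groups, at 121, 110 and 129 against 111, 113 and 114 in rank 4. Relative to the sample medians, which on chr1 to chr19 were 23, 23 and 27 in the controls and 28, 27 and 30 with TGF-β1, all 3 members were lower in every TGF-β1 sample than in every control. Of the 13 lower members, 7 had a mean pileup over 100, which 19 of the 500 members and 162 of all shared regions had. The share of such regions among all lower calls was not counted. The SE of ranks 2 and 41 was 0.07, beside a median of 0.18 over the members. When limma was fitted without a trend, 2 members were lower at an unadjusted p under 0.05, beside 2.22% of all regions.

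The 3 higher members with the smallest p lay between genes. Rank 96, chr7:22197294-22198383, had a pileup of 31, 35 and 42 in the controls and 47, 59 and 59 with TGF-β1, a difference of 0.39 ± 0.17 (log2, SE; limma unadjusted p = 0.028, adjusted p = 0.999). Rank 489, chr19:41542435-41543270, had 34, 35 and 47 against 66, 54 and 55, and rank 385, chr19:4818738-4820231, had 24, 18 and 23 against 34, 31 and 38. In these 3 members every TGF-β1 value was above every control value, in raw and in relative pileup. All 3 are repeats, with 99.5%, 87.2% and 86.5% of their 31-mers elsewhere in the assembly.

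The lowest pileups among the members showed that length did not require height. Rank 395, in an intron of the complement gene Hc, had 18, 13 and 26 in the controls and 16, 21 and 25 with TGF-β1, below the median of all shared regions in every sample. Rank 345, chr1:46751855-46752967, had 16, 15 and 27 against 19, 20 and 22 with 2 CpGs in all, and rank 279, in the last exon of Pdzrn4, had 19, 21 and 23 against 19, 20 and 20, which overlapped in raw but not in relative pileup. Their longest peaks still averaged 805, 820 and 840 bp.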

How the data were processed

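MeDIP-seq peak lists of 3 control and 3 TGF-β1 samples were used, grouped by their treatment labels. Per the methods and file headers, the authors mapped reads to mm9 with BWA, kept uniquely mapped reads, counted each start position once, and called peaks per sample with MACS2 2.1.0.20150731 at a q-value cutoff of 0.01 without input. The deposited pileup is a signal not scaled for depth, the deposited fold enrichment is its ratio to local background, and deposited p- and q-values are −log10 values. Peaks were joined by 1 bp overlap, checked against bedtools 2.31.1. Sequence came from NCBIM37 (the same assembly as mm9) and genes from GENCODE vM1. The element was that at the midpoint, in the order coding, upstream 2 kb, downstream 2 kb, untranslated, intron, intergenic, over protein-coding transcripts. Tests used limma 3.58.1 in R 4.3.3 (eBayes with trend) and exact permutation over 20 assignments in Python 3.11.15. The limma code was also run on simulated data, with spreads shuffled across regions and changes larger than that of any member. Detection of changes as small as those of the members was not tested. Named regions were the 10 longest, the 3 nearest the threshold on each side, the 3 smallest p in each direction, the 3 highest and lowest pileups, the 3 longest of each element, the 3 with most CpGs and the 3 lowest CpG densities, up to 3 longest per gene list of 21, and genes with at least 3 members. A few of these are not reported here. The members and lists were chosen with earlier results of these data known, and the repeat classes after seeing the data. Alternatives were leaving out each sample, a replicate block, other peak thresholds, joinings, set sizes, scalings and class limits.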

Additional observations from a re-analysis of the deposited data

How the results depend on the processing

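No member passed an adjusted limma p of 0.05 under any of the 19 alternatives, and over all regions 1 region, not a member, passed when the fold enrichment of the highest peak replaced pileup. Some of the 19 reused the main fit, namely stricter call limits, 250 members, 1000 members and members by covered length. With 0 regions called in that fit, these could only give 0. The members at an unadjusted p under 0.05 were 1.2% higher and 2.6% lower with TGF-β1, beside 1.96% and 2.22% of all regions, and became 0% and 5.6%, beside 0.508% and 5.72%, when pileup was scaled by reads. That scaling took the higher calls of all regions from 818 to 212 and the lower from 926 to 2387. Without control 1, 5.6% were lower, beside 2.96% of all regions, and without control 3, 3% were higher, beside 3.03%. The shares were 0.6% and 1.4% without TGF-β1 sample 3, beside 1.55% and 2.16%, and 0.4% and 0.4% without a trend, beside 2.05% and 2.22%, and with fold enrichment, beside 2.03% and 2.38%. The cause was not tested.

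The difference in median relative pileup (0.0043) lay between -0.0293 and 0.0497 when single samples were left out. It became -0.0345 with 250 members, -0.00204 as a mean log2 difference and -0.209 when divided by the reads of the sample, in units of 1000000. The difference in fold enrichment (-0.0988) lay between -0.24 and 0.0626 without single samples. Exact p-values were 0.1 or more in all of these, and 3 against 2 samples cannot go below 0.1. Relative pileup without control 3 (0.0497) and fold enrichment without control 1 (-0.24) reached that smallest exact permutation p. So did peaks per region without control 3 (-0.0363).

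Taking replicate numbers as a block gave sign-flip p-values of 1, 0.75 and 0.5 for relative pileup, fold enrichment and peaks per region, the smallest possible being 0.25, and 0 limma calls. Deviations of same-numbered samples correlated at -0.0464, 0.0432 and -0.13, and 1 of 6 samples correlated best with its own number, so the numbers were not taken as pairs.

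Tandem arrays were 32.8% of 250 members, 12.6% of 1000 and 14.2% at 70% identity. Dispersed copies were 24.4% of 250, 37.6% of 1000, 25.2% of members by covered length, and 37.6% and 21.4% at limits of 25% and 75%. Of 1000 members, 50% lay between genes. The class limits were added after seeing the data. Choosing members again without 1 sample kept 429 to 466 of the 500, with 429 without control 1. Depth of 9407103 to 13291419 reads limits the pileups, and regions without a peak in any 1 sample are not among these regions.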
